A study of Arabidopsis thaliana with 24 samples.

Results

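The 112 transcripts described here had high levels at midnight and pre-dawn and low levels at midday and late day in well-watered rosettes of Arabidopsis thaliana. They were chosen by their well-watered group means from 11926 probe sets that reached 5 log2 on at least 3 of 24 arrays, and they make up 0.939% of those probe sets. The means at midnight and pre-dawn had to differ by less than 1 log2, and the lower of both had to exceed the higher of the midday and late-day means by at least 1 log2. That excess is called the margin below. At most 200 were to be kept, and 112 met the rule. Exactly 1 gene was assigned to 60 of them, several genes to 3 and none to 49, which are given by probe set.

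Plants were wild-type Col-0, the reference accession, 32 days old and grown on potting mix under a 12 h photoperiod. Well-watered plants had water for all 32 days, whereas the water-limited ones had it for 28 days and none for the last 4 days. Whole rosettes of each regime were harvested at 4 labelled times, 12 h (midday), 18 h (late day), 0 h (midnight) and 6 h (pre-dawn), and gave 8 groups of 3 arrays described as biological replicates. All values are log2 expression per probe set, so that a difference of 1 is a doubling, and levels of different probe sets are not compared. In whole rosettes, fewer cells of a type and less RNA per cell cannot be told apart.

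A large share of plant transcripts changes over the day. Such rhythms are driven by light and sugar supply and by the circadian clock, a set of transcription factors and associated proteins that repress and activate each other in sequence. GIGANTEA (GI), the member with the widest margin, is a clock protein that also acts in photoperiodic flowering and is known to be most abundant as transcript towards the end of the light period.

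The labelled times were set against genes whose daily timing is well known. GI was lowest at the labelled midday and late day in both regimes. COR27, a clock-linked cold-responsive gene known to peak in the later part of the light period, had well-watered means of 7.98 ± 0.29 (midday), 6.64 ± 0.48 (late day), 2.79 ± 0.50 (midnight) and 9.40 ± 0.17 (pre-dawn), each with its SD over n = 3 arrays. CDF5, a DOF factor known to peak near dawn, was highest at late day, with a mean of 6.49 ± 0.46 against 3.16 ± 0.19 at pre-dawn. AT2G20670, a gene repressed by sugar and raised in darkness, was also highest at late day, with 8.46 ± 0.65 against 3.33 ± 0.76 at midday. These levels go against the known timing of the genes at the labelled hours, in water-limited plants as well. The cause was not tested, so the names midday, late day, midnight and pre-dawn below are those of the labels, and no statement is made on light or dark.

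Array medians lay between 4.66 and 4.86 log2, no arrays held identical values, and the number of arrays limits the precision. RCA, which encodes the chloroplast protein Rubisco activase, was between 13.65 and 14.62 on all arrays, and EXPA7, a root hair expansin, stayed between 2.196 and 2.28, next to the table's lowest value. The other listed leaf, root and flower markers were not named on the array, apart from PYK10, a glucosidase known from roots, at 4.59 to 8.04. Water-limited pre-dawn replicate 2 stood apart from replicates 1 and 3, which were the most alike pair of arrays (r = 0.991), for several members described below. The GAPDH control signal of the 3-prime minus that of the 5-prime probe set, a measure of RNA integrity, was 1.17 to 1.43 on the water-limited midday arrays and 1.49 to 1.75 on the other 9 water-limited arrays.

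In well-watered plants the margins ran from 1.00 to 5.61 with a median of 1.25. A margin of at least 2 was found for 12 members, and 73 had one between 1 and 1.5. At the threshold, AT3G02630, an acyl-ACP desaturase family gene, was just inside with 1.002, and AT1G02270, AT3G57680 and AT1G34570 were just outside with 0.998, 0.995 and 0.994. A further 33 probe sets had the margin but differed by 1 log2 or more between midnight and pre-dawn. The median level over all arrays was 7.41 for the members and 7.10 for all probe sets tested, given as a description of the table only. For 108 members the well-watered arrays alone satisfied the level filter, while 18 reached 5 log2 on fewer than 3 of the midday and late-day arrays and so passed it mainly through the times at which they were high. The lower of the well-watered midday and late-day means was that of late day for 97 members and that of midday for 15. The median levels of the members at midday and late day were 6.76 and 5.89, and those at midnight and pre-dawn 8.44 and 8.25. These well-watered values chose the members and are given without a test.

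**Figure D1:**
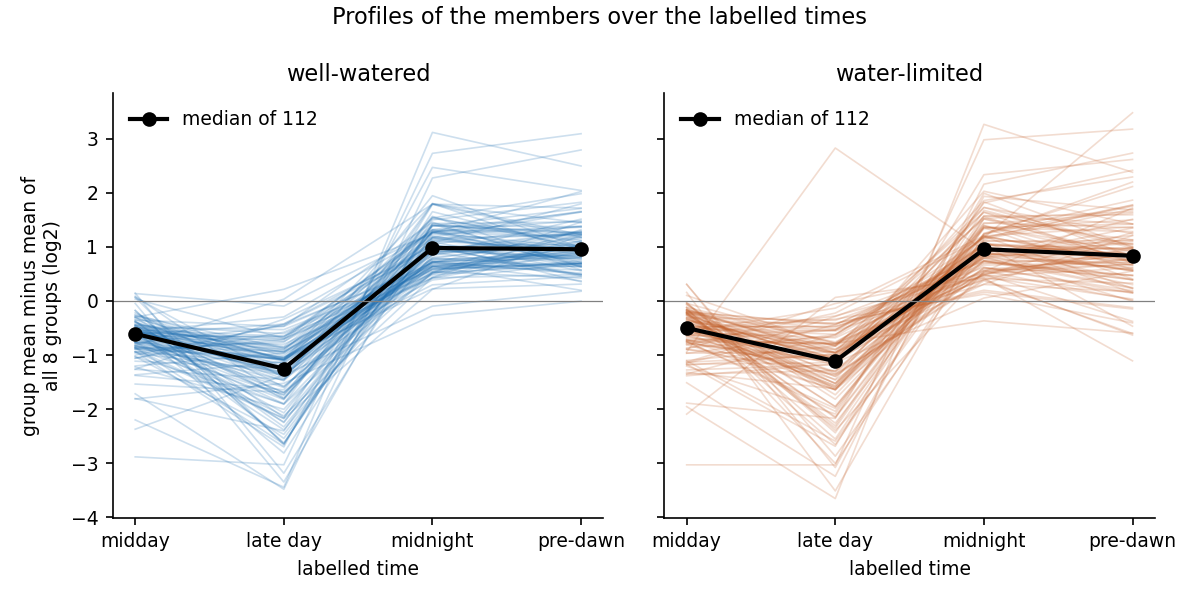
Profiles of the 112 members over the labelled times in well-watered (left) and water-limited (right) rosettes. Each thin line is 1 member, as its group mean of 3 arrays minus its mean over all 8 groups, in log2, and the thick line is the median of 112; both medians are lowest at late day and high at midnight and pre-dawn.

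The water-limited arrays did not enter the margin, but they counted in the level filter, which 108 members met on well-watered arrays alone. The same difference between times was tested on the water-limited arrays. For members that met the filter only with those arrays, or mainly through midnight and pre-dawn, the test is not independent of the choice. The counts below keep these members and were not repeated without them. Among them are the 18 members with fewer than 3 midday and late-day arrays at 5 log2. At midnight and pre-dawn, 106 of 112 members (94.6%) were higher than at midday and late day in water-limited plants, by limma on the 12 water-limited arrays with adjusted p under 0.05, against 15.1% of all probe sets tested. None was lower by that test or at an unadjusted p under 0.05, against 17.6% of all probe sets at the adjusted threshold. The mean of the midnight and pre-dawn arrays minus that of the midday and late-day arrays, called the time difference below, had a median of 1.70 over the members, or 3.25-fold, and of -0.0039 over all probe sets tested. The median standard error of this difference was 0.18 for the members. It was 1 or more in 94 members and 2 or more in 46. All 6 midnight and pre-dawn arrays lay above all 6 midday and late-day arrays in 82 members (73.2%), against 4.99% of all probe sets. Past the threshold without any single array were 103 of the 106. With the GAPDH difference as a covariate, 98 members were higher. Under a stricter filter, a mean of 6 log2, 81 of the 83 members tested were higher. That mean also takes in the high times, so it does not remove the dependence on the choice.

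The time differences of both regimes are set side by side as a description only, since the rule favoured large values in well-watered plants. The median time difference was 1.87 in well-watered plants, where the members were chosen, and it was smaller in water-limited plants for 74 members and larger for 38. Pearson's r between the time differences of both regimes over the 112 members was 0.88, and 0.80 without the 3 members of widest margin, as a description only. Applied to the water-limited means, the rule found 130 probe sets, and the 62 common to both lists are 55.4% of the well-watered list and 47.7% of the water-limited list. Of the 50 members that dropped out, 48 missed the margin and 2 missed only the limit on the difference between midnight and pre-dawn. The water-limited margin was above 0 in 109 members.

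**Figure D2:**
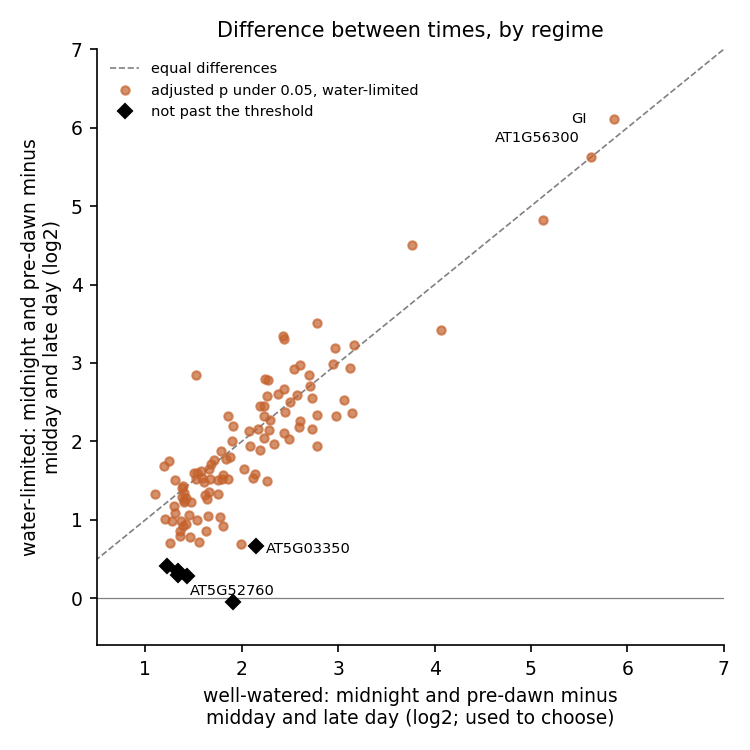
Time difference (mean of midnight and pre-dawn arrays minus mean of midday and late-day arrays, log2) of each of the 112 members in well-watered (horizontal, used to choose them) and water-limited rosettes (vertical). Orange points are the 106 members past the threshold in water-limited plants, black diamonds the 6 that were not, and the dashed line marks equal differences.

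Named members were grouped by a known or presumed role, with 40 genes in 10 groups and 20 named genes in none. The defence group includes AT1G13470 and AT5G52760, for which no defence function is stated here. The grouping was made with the values known and is an order of description. All members of 9 groups were higher at midnight and pre-dawn in water-limited plants, and 4 of 6 were in the defence group. The share was 94.6% over all 112 members and 15.1% over all probe sets tested, so no result on roles is read from these counts.

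Among the 4 regulators, GI had the widest difference of all members. On the water-limited arrays it was at 2.32, 2.31 and 2.32 on the midday arrays, 2.32, 2.31 and 2.32 on the late-day arrays, 8.35, 8.37 and 8.26 on the midnight arrays and 8.66, 8.38 and 8.53 on the pre-dawn arrays. The times did not overlap, and the midday and late-day values lay next to the lowest value of the table, 2.196, so the low level is not resolved. The fitted time difference was 6.11 (limma adjusted p = 3.55e-13), which is a lower bound for that reason. AT2G47890 encodes a B-box zinc finger protein (BBX11), of a family that acts in light signalling. It was at 6.26, 6.25 and 6.73 on the midday arrays, 4.25, 4.40 and 4.27 on the late-day arrays, 8.66, 8.07 and 7.97 on the midnight arrays and 8.07, 7.77 and 8.40 on the pre-dawn arrays of water-limited plants. It was thus intermediate at midday and lowest at late day, with a time difference of 2.79 ± 0.16 (SE, limma adjusted p = 6.39e-08). ATMPK8, a mitogen-activated protein kinase, and AT1G14580, a C2H2 zinc finger factor of the INDETERMINATE DOMAIN family, had smaller differences of 1.48 ± 0.15 and 1.28 ± 0.18. AT1G14580 met the level filter only with water-limited midnight arrays, so its test is not independent of the choice.

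The chaperone group held HSP70 partners. AT1G56300 and AT3G14200 encode J-domain proteins, which stimulate HSP70 chaperones, and Fes1B is a nucleotide exchange factor of HSP70. AT1G56300 was at 5.48, 5.07 and 4.77 on the midday arrays, 2.90, 4.10 and 3.23 on the late-day arrays, 10.71, 10.19 and 10.07 on the midnight arrays and 9.12, 9.75 and 9.44 on the pre-dawn arrays of water-limited plants. Every midnight and pre-dawn array exceeded every other by more than 3 log2, and the time difference was 5.62 ± 0.21 (SE, limma adjusted p = 2.25e-09). Fes1B was at 5.39, 6.35 and 6.07 on the midday arrays, 4.27, 3.80 and 4.39 on the late-day arrays, 7.14, 7.72 and 7.52 on the midnight arrays and 6.29, 6.98 and 6.27 on the pre-dawn arrays. Its pre-dawn arrays overlapped those of midday, and its time difference was 1.94 ± 0.20. AT3G14200 had 1.76 ± 0.16.

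The 3 genes linked to cold and dehydration were LTI30, a dehydrin that protects membranes, AT4G30660, a small hydrophobic protein of the low-temperature and salt responsive family, and AT1G13930, linked to salt stress. AT1G13930 was the least variable: 11.92, 11.72 and 11.69 on the midday arrays, 11.01, 10.82 and 10.99 on the late-day arrays, 13.91, 13.82 and 13.61 on the midnight arrays and 13.93, 14.04 and 13.88 on the pre-dawn arrays of water-limited plants. The groups did not overlap between the low and the high times, and the time difference was 2.51 ± 0.10 (SE, limma adjusted p = 4.54e-09). AT4G30660 had 2.94 ± 0.23. LTI30 was at 6.64, 6.33 and 6.00 on the midday arrays, 4.55, 8.32 and 6.31 on the late-day arrays, 9.47, 8.39 and 8.29 on the midnight arrays and 8.33, 8.72 and 8.60 on the pre-dawn arrays. Late-day replicate 2 lay within the range of the midnight arrays, and the time difference of 2.28 ± 0.47 (adjusted p = 0.00272 by limma) fell to 1.43 with the GAPDH difference as a covariate (limma adjusted p = 0.0511).

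Pectin-modifying families were represented by AT5G62360, of the invertase and pectin methylesterase inhibitors, AT1G57590, a pectin acetylesterase, and AT3G09540, of the pectate lyases. AT5G62360 was at 7.98, 7.29 and 7.06 on the midday arrays, 6.20, 6.21 and 5.37 on the late-day arrays, 10.68, 10.55 and 10.57 on the midnight arrays and 9.14, 10.31 and 9.35 on the pre-dawn arrays of water-limited plants. The time difference was 3.42 ± 0.23 (SE, limma adjusted p = 2.89e-07). AT1G57590 lay between 3.97 and 4.60 on all 6 midday and late-day arrays and between 7.08 and 8.26 on the others, with a time difference of 3.35 ± 0.20. As for GI, its test is not independent of the choice. AT3G09540 had 1.59 ± 0.17.

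The 7 transport genes had time differences from 0.72 to 3.23. AT4G34950, AT1G64890 and AT2G16660 are major facilitator proteins, AT1G51610 is of the cation efflux family, AT4G38050 of the nucleobase permeases, AT3G20240 of the mitochondrial carriers and AT1G10090 of the ERD4-related channel family. For 6 of the 7, water-limited midday also exceeded late day past the threshold, against 42% of the members and 6.7% of all probe sets, a comparison in which the GAPDH covariate lowered the count over the members from 47 to 24. AT4G34950 was at 9.22, 9.88 and 9.19 on the midday arrays, 5.36, 6.71 and 5.22 on the late-day arrays, 10.95, 10.23 and 10.40 on the midnight arrays and 11.05, 11.27 and 11.09 on the pre-dawn arrays. Midday lay much closer to the high times than to late day. AT3G20240 had the smallest difference of the group, 0.72 ± 0.18 (limma adjusted p = 0.00835), which missed the threshold with the GAPDH difference as a covariate (adjusted p = 0.0647).

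PDC2, a pyruvate decarboxylase of ethanolic fermentation, had the same form as AT4G34950. It was at 9.06, 8.34 and 8.59 on the midday arrays, 4.98, 5.81 and 5.03 on the late-day arrays, 11.01, 10.07 and 9.78 on the midnight arrays and 10.20, 9.65 and 10.25 on the pre-dawn arrays of water-limited plants. Late day stood alone as the low time, and the time difference was 3.19 ± 0.23 (SE, limma adjusted p = 5.71e-07). AT5G39790, a plastid protein that targets granule-bound starch synthase to starch, had 1.32 ± 0.20. AT1G13750, a purple acid phosphatase, had 0.69 ± 0.24 (limma adjusted p = 0.0395), the smallest difference past the threshold, and missed it with the GAPDH covariate (adjusted p = 0.120) and without any one of the water-limited midday or late-day arrays or midnight replicate 2 or 3. It was at 4.83, 6.39 and 4.82 at pre-dawn, where replicate 2 alone exceeded its midday arrays, and the time difference was 0.43 without that array.

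The 5 genes of lipids and jasmonate varied little among themselves, from 1.33 to 1.78. They were AT1G28610, a GDSL lipase family member, OPCL1, an acyl-CoA ligase of jasmonate synthesis, UGT80B1, a sterol glucosyltransferase, AT3G02630 and AT2G38010, a ceramidase family gene. AT1G28610 met the level filter only with water-limited midnight and pre-dawn arrays, so its test is not independent of the choice. OPCL1 was at 7.57, 6.96 and 7.42 on the midday arrays, 6.58, 6.65 and 6.80 on the late-day arrays, 8.95, 8.45 and 8.72 on the midnight arrays and 8.58, 8.27 and 8.61 on the pre-dawn arrays of water-limited plants, with no overlap between low and high times. Its time difference was 1.60 ± 0.14 (SE, limma adjusted p = 2.83e-06). Of the protease genes, AT4G33490 and AT3G61820 encode aspartyl proteases and AT5G38510 a rhomboid protein, with time differences of 2.60 ± 0.11, 0.95 ± 0.12 and 1.52 ± 0.09. The RNA and chromatin group held AT2G28720, a histone H2B gene, AT4G18930, a cyclic phosphodiesterase, and AT3G18500, related to the CCR4 deadenylases, with 2.38 ± 0.19, 1.94 ± 0.15 and 1.35 ± 0.15.

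The defence group was the one group with members that did not pass. AT1G33970, an AIG1-type GTP-binding protein (IAN9), AT4G36010, of the thaumatin family, AT1G13470, whose product has a domain of unknown function, and AT4G01700, of the chitinases, had time differences of 2.53 ± 0.17, 2.32 ± 0.20, 1.04 ± 0.15 and 0.79 ± 0.17 in water-limited plants, all past the threshold. AT4G01700 missed it with the GAPDH covariate (limma adjusted p = 0.0576). The level filter was met mainly through midnight and pre-dawn by AT4G36010, AT1G13470 and AT4G01700, so their tests are not independent of the choice. AT5G03350, a legume-lectin family gene induced by salicylate, was at 6.87, 6.46 and 6.21 on the midday arrays, 8.97, 9.45 and 7.59 on the late-day arrays, 7.78, 9.49 and 9.82 on the midnight arrays and 6.29, 9.87 and 6.34 on the pre-dawn arrays. The midday arrays lay below all late-day and midnight arrays, while the late-day, midnight and pre-dawn arrays overlapped, and the time difference of 0.67 ± 0.59 did not pass (limma adjusted p = 0.412). AT5G52760, with a heavy-metal-associated domain, was between 2.80 and 4.84 at midday and late day and between 3.50 and 5.06 at midnight and pre-dawn, a difference of 0.29 ± 0.40 (adjusted p = 0.613 by limma). Its direction turned to -0.003 without water-limited midday replicate 3, and both AT5G03350 and AT5G52760 turned, to -0.04 and -0.35, with the GAPDH covariate.

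**Figure D3:**
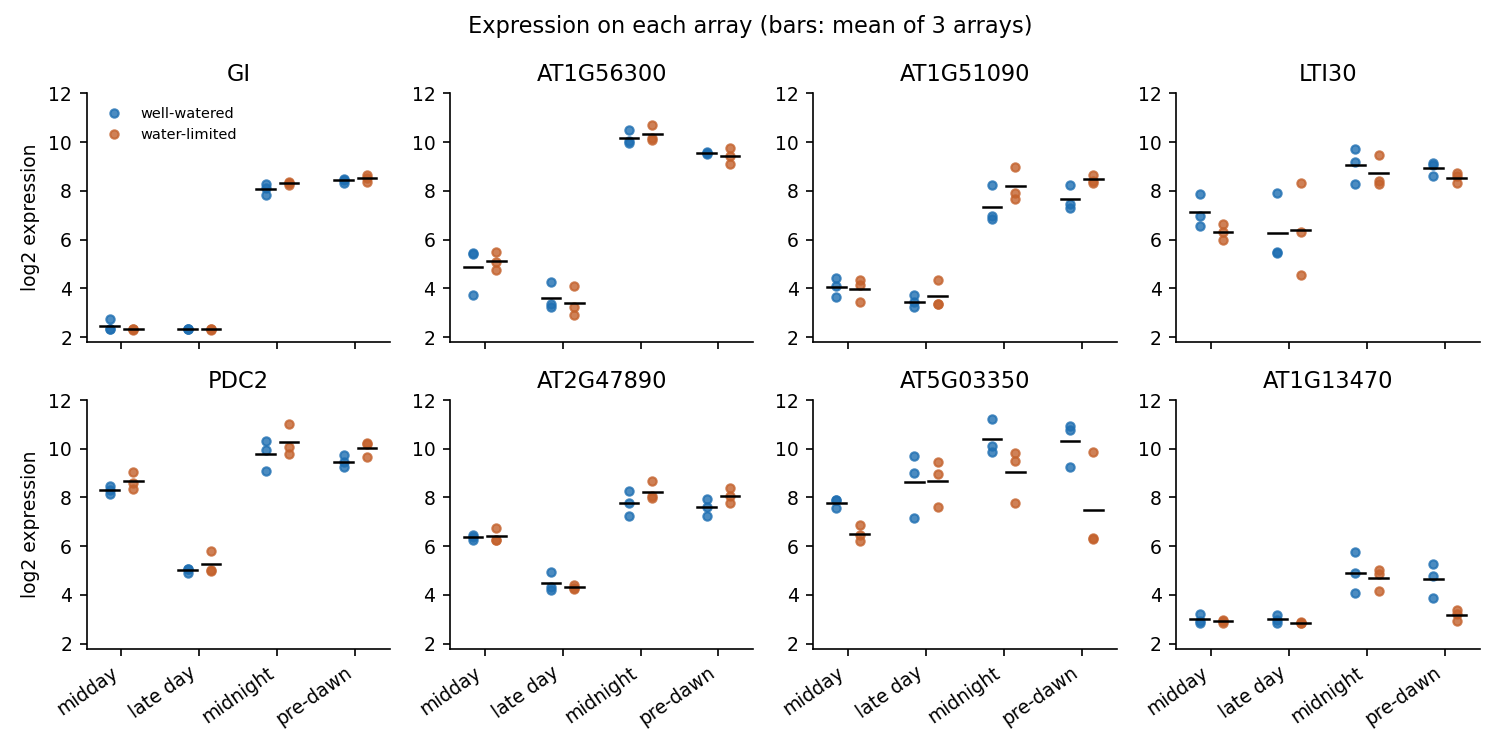
Expression of 8 members on each of the 24 arrays (log2), with well-watered arrays in blue, water-limited arrays in orange and a bar at the mean of each 3 arrays. GI and AT1G56300 show no overlap between the low and the high times in either regime, PDC2 and AT2G47890 are intermediate at midday, and AT5G03350 spreads from 6.29 to 9.87 on the water-limited pre-dawn arrays.

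The other 4 members that missed the threshold in water-limited plants have no gene name: 257101_at with a time difference of 0.41, 266687_at with 0.35, 267265_at with 0.28 and 248918_at with -0.05, singled out after their values were seen. The limma adjusted p were 0.100, 0.234, 0.334 and 0.965. Exactly equal low values recurred on several arrays for 257101_at (5.2389) and 266687_at (3.9155), so their low levels may not be resolved. Probe set 248918_at was at 7.46, 2.196 and 5.48 on the midday arrays, 9.56, 7.75 and 9.14 on the late-day arrays, 7.95, 6.50 and 6.34 on the midnight arrays and 6.53, 7.82 and 6.15 on the pre-dawn arrays of water-limited plants. Its late-day arrays were thus among the highest, against 6.23, 3.70 and 3.92 in well-watered plants. With AT5G03350 and 267265_at, it was one of the 3 members whose water-limited margin was not above 0.

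Outside the role groups, AT1G51090, with a heavy-metal-associated domain, was at 4.15, 4.34 and 3.42 on the midday arrays, 3.35, 4.36 and 3.35 on the late-day arrays, 8.99, 7.92 and 7.66 on the midnight arrays and 8.34, 8.42 and 8.65 on the pre-dawn arrays of water-limited plants. Its low and high times were over 3 log2 apart, with a time difference of 4.50 ± 0.26 (SE, limma adjusted p = 6.58e-08). This gene reached 5 log2 only at midnight and pre-dawn, so its test is not independent of the choice. AT1G11210 had 3.51 ± 0.32, AT4G32340, a tetratricopeptide repeat protein, 3.31 ± 0.21, and AT5G35735, of the cytochrome b561 and DOMON family, 2.85 ± 0.24. AT1G76960 had 2.66, which came to 1.62 with the GAPDH covariate and still passed. The unnamed probe set 260412_at, singled out after its values were seen, had 4.82, the third largest of all members.

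Within the pair of low times, the members were uneven. In water-limited plants 47 members (42%) were higher at midday than at late day by limma, against 6.7% of all probe sets, and 3 (2.68%) were higher at late day, against 5.98%. The median of midday minus late day was 0.63 over the members and 0.03 over all probe sets. The largest values among named members were 3.67 ± 0.35 for AT4G34950, 3.39 ± 0.33 for PDC2, 2.40 ± 0.16 for AT4G14230, a CBS domain protein, 2.39 ± 0.33 for AT4G30660 and 2.39 ± 0.34 for AT5G35735. The members higher at late day were 248918_at with -3.77, AT1G73470 with -0.84 and AT3G46630 with -0.72. AT1G51090, with 0.28 ± 0.36, did not pass, and GI, next to the lowest value of the table at both times, allows no comparison between them. With the GAPDH difference as a covariate, 24 members were higher at midday and 1 at late day. The GAPDH differences were lowest on the midday arrays, and their part in the result was not tested beyond that fit. Without water-limited midday replicate 3, 1 member was higher at late day. The rule fixed only the upper of both well-watered means and not their order.

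Within the pair of high times, 12 members differed in water-limited plants. In well-watered plants the rule had limited that gap. Of the 12, 6 (5.36% of all members) were higher at midnight than at pre-dawn, against 6.05% of all probe sets, and 6 were higher at pre-dawn, against 6.2%, so the members were near the background in both directions. The median of midnight minus pre-dawn was 0.14. AT1G13470 was at 4.87, 4.16 and 5.03 at midnight and at 3.22, 3.38 and 2.94 at pre-dawn, where it came close to its midday and late-day arrays between 2.86 and 2.96. The difference was 1.50 ± 0.21 (SE, limma adjusted p = 0.000446). AT1G13470 met the level filter only with water-limited midnight replicate 3, so this test is not independent of the choice. Values of 2.859 and 2.944 each recurred on the low arrays of AT1G13470, so its low level may not be resolved. AT1G74640 (0.96 ± 0.15), Fes1B (0.95 ± 0.28), AT3G61820 (0.54 ± 0.16), 245052_at and 259992_at were also higher at midnight. AT4G33490 (-0.53 ± 0.15) and 5 unnamed probe sets, among them 245628_at with -2.31, were higher at pre-dawn. The count higher at midnight was 2 without water-limited pre-dawn replicate 1 or 3, 3 without midday replicate 3, late-day replicate 1 or midnight replicate 3, 10 without pre-dawn replicate 2 and 11 without late-day replicate 2. The count higher at pre-dawn was 1 without pre-dawn replicate 1 or 3, 2 without midnight replicate 3, 3 without midnight replicate 2 and up to 9 otherwise.

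**Figure D4:**
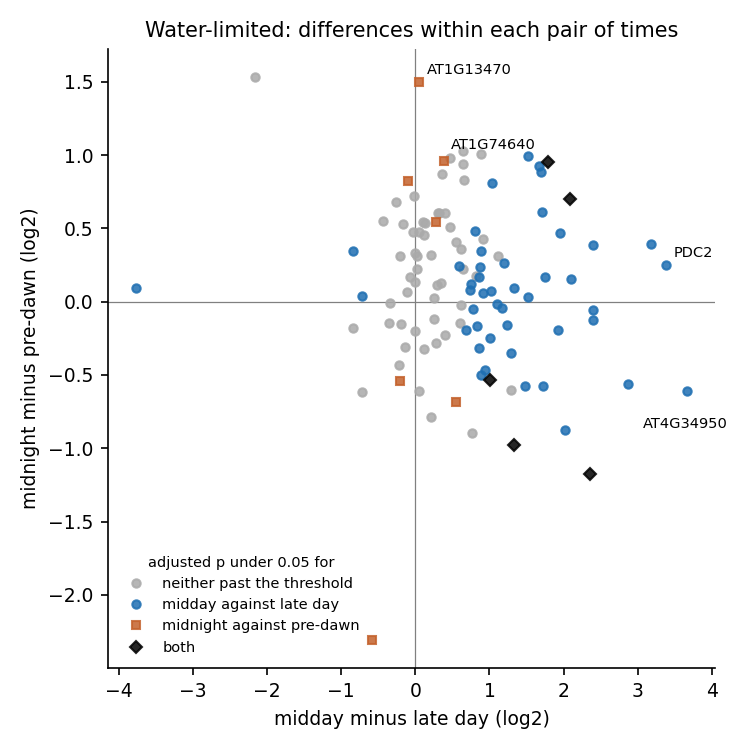
Midday minus late day (horizontal, log2) against midnight minus pre-dawn (vertical, log2) in water-limited rosettes for the 112 members, coloured by which difference passed an adjusted p under 0.05. The 47 members higher at midday lie to the right, up to 3.67 for AT4G34950, while most values on the vertical axis are near 0.

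The levels of the members were then set side by side between the regimes at each time. The well-watered arrays of this comparison also chose the members, so that high well-watered values at midnight and pre-dawn and low ones at midday and late day were favoured, and the counts are a description from which nothing is read. At midday, 0 members passed by limma on all 24 arrays, against 0% of all probe sets. At an unadjusted p under 0.05 there were 9 of 112 members, beside 593 of all 11926 probe sets tested. At late day 0 members passed, against 0.21%. The unadjusted counts there were 24 of 112 members and 1085 of 11926 probe sets. At midnight 1 member was lower in water-limited plants, against 0.277%. At pre-dawn 2 members were higher, against 4.1%, and 14 were lower, against 3.14%. The medians over the members of water-limited minus well-watered at midday and late day were 0.14 and 0.11, and those at midnight and pre-dawn -0.01 and -0.07.

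**Figure D5:**
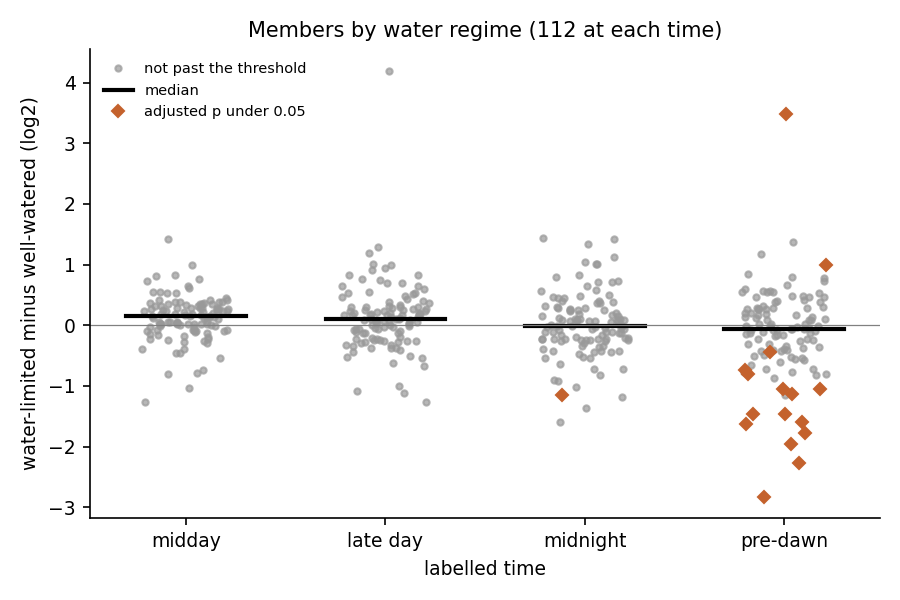
Water-limited minus well-watered expression (log2) of the 112 members at each labelled time, with a bar at the median and orange diamonds for values with an adjusted p under 0.05. No member passed at midday or late day, 1 passed at midnight and 16 at pre-dawn, of which 14 lay below 0.

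Of the 6 genes described above under defence, a grouping made with the values known, 3 passed as lower at pre-dawn in water-limited plants. That stands beside 14 of 112 members and 3.14% of all probe sets, and the well-watered pre-dawn values also chose the members. Among the 3 were AT5G52760 and AT1G13470, for which no defence function is stated here. AT4G01700 (-0.88), AT1G33970 (0.28) and AT4G36010 (0.55) did not pass. AT5G03350 was at 10.77, 9.24 and 10.95 in well-watered and at 6.29, 9.87 and 6.34 in water-limited plants, a difference of -2.82 ± 0.79 (SE). The regimes overlapped through water-limited replicate 2. AT5G52760 had 6.26, 5.41 and 6.60 against 3.84, 5.06 and 3.50, without overlap, and a difference of -1.95 ± 0.53. AT1G13470 had 5.28, 3.87 and 4.77 against 3.22, 3.38 and 2.94, and a difference of -1.46 ± 0.33.

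AT1G13750, the purple acid phosphatase, was at 7.50, 6.22 and 7.21 in well-watered and at 4.83, 6.39 and 4.82 in water-limited plants, a difference of -1.63 ± 0.36, again with replicate 2 apart from the other two. AT5G62360, the inhibitor family member, differed by -1.05 ± 0.27, AT3G56060, of the GMC oxidoreductases, by -0.80 ± 0.24 and AT3G61820 by -0.44 ± 0.13. AT5G62360 was at 9.14, 10.31 and 9.35 in water-limited plants, with replicate 2 again apart. AT3G56060 was at 8.49, 8.69 and 8.74 in well-watered and at 7.50, 8.65 and 7.36 in water-limited plants. Its regimes overlapped through water-limited replicate 2. The other 7 lower members were unnamed probe sets. Among them 267265_at differed by -1.13 ± 0.25 and was the 1 member lower at midnight as well, by -1.14 ± 0.25. It was at 9.22, 8.91 and 9.10 in well-watered and at 7.58, 8.33 and 7.89 in water-limited plants at midnight, without overlap.

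The 2 members higher at pre-dawn were 256676_at (0.99 ± 0.25) and 245628_at. The latter was at 6.22, 6.82 and 5.91 in well-watered and at 10.46, 8.66 and 10.28 in water-limited plants, a difference of 3.48 ± 0.59. AT1G11210 and AT1G57590, with 1.37 ± 0.45 and 1.18 ± 0.38, had the largest values above 0 among named members and did not pass (limma adjusted p = 0.0647 and 0.0640). The pre-dawn count of 16 depended on single arrays. It was 2 without well-watered replicate 1 or 3 or water-limited replicate 1 or 3 of that time, and 26 without water-limited replicate 2. With the GAPDH covariate it was 10. The midnight count was 5 when replicate 3 of the well-watered midnight arrays was left out, 2 when replicate 1 of the water-limited midday arrays was, and 0 when any one of the well-watered midday, late-day and pre-dawn arrays, the other two well-watered midnight arrays, or replicate 1 or 3 of the water-limited midnight or pre-dawn arrays was. The late-day count was 2 on leaving out replicate 2 of the water-limited late-day arrays, and 1 on leaving out replicate 3 of the well-watered ones or replicate 1 or 2 of the water-limited midday arrays.

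The wider pathways were read from 16 gene lists, of which few genes are named on the array, and only GI of the members is on one. Of 5 clock-linked genes tested, 3 were higher at midnight and pre-dawn in water-limited plants by limma (GI, COR28 with 1.35 ± 0.19 and RVE6 with 0.53 ± 0.15), CDF5 was lower (-0.73 ± 0.20) and COR27 did not pass. Both tested genes of starch breakdown were higher, DPE1, a disproportionating enzyme, with 1.45 ± 0.13 and PWD, phosphoglucan water dikinase, with 1.24 ± 0.21. Both of starch synthesis were higher too, APL3, a subunit of ADP-glucose pyrophosphorylase, with 1.13 ± 0.24 and SBE2.2, a branching enzyme, with 0.92 ± 0.16. None of these 4 was a member.

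Of 5 genes of sugar starvation and darkness, 3 were lower, among them AKINBETA1, a subunit of the SnRK1 kinase, with -1.64 ± 0.14. Of 12 autophagy genes, 2 were higher and 1 lower. Of 7 genes of branched-chain amino acid and lysine breakdown, 2 were higher and 1 lower. Of 5 genes of ribosome biogenesis, 2 were lower, as were 2 of 3 night-growth and shade genes, 2 of 4 light-harvesting and Calvin cycle genes, 1 of 2 of chlorophyll synthesis and the 1 light-signalling gene tested, HYH. AIM1, the 1 gene of fatty acid beta-oxidation tested, was higher. These lists are read against the 15.1% and 17.6% of all probe sets that were higher and lower.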

How the data were processed

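The deposited table holds 1 log2 value per probe set and array for 22810 probe sets. The authors computed it with GCRMA, as the submitters' processing notes say; the GCRMA version was not given in the sources used here. The lowest value is 2.1961, and 25.5% of values lie within 0.001 of it. The values were not normalized further. The 64 control probe sets were set aside, and 11926 of the other 22746 had at least 5 log2 on 3 or more of 24 arrays. Names come from the platform annotation and the RefSeq TAIR10.1 table, used for names only.

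Members and gene lists were chosen with earlier results of these data known. The package limma 3.58.1 (R 4.3.3) tested differences between times on the 12 water-limited arrays (8 residual and 4.67 prior degrees of freedom). Regimes were compared in 1 fit of 24 arrays (16 and 4.57). Tests were two-sided, with Benjamini-Hochberg adjustment over all 11926 probe sets and a threshold of 0.05. The fit was tested on simulated data.

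The members named have exactly 1 gene. They are those with the widest margins, the largest and smallest time differences or the largest differences between regimes. Those nearest the threshold, on a gene list or in a role group were named as well. Alternatives changed the filter, arrays fitted, moderation, scaling, replicate block, RNA-quality covariate, probe sets and members, or left out 1 array. Sequences were not used here.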

Additional observations from a re-analysis of the deposited data

How the results depend on the processing

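The count of 106 members higher at midnight and pre-dawn in water-limited plants stayed between 98 and 106 of 112 in all alternatives that kept the 112, and between 103 and 106 without single arrays. With probe sets of exactly 1 gene it was 58 of 60, with 845 probe sets higher and 1135 lower in all, since fewer were tested. Counts of smaller differences moved more. Higher at midnight than pre-dawn were 2 with no filter, 10 with all 24 arrays in 1 fit, 12 with the GAPDH covariate, 3 with exactly 1 gene and 2 to 11 without single arrays. Higher at pre-dawn than midnight were 1 with exactly 1 gene and 1 to 9 without single arrays. Higher at midday than late day were 30 with no filter, 24 with the covariate, 28 with exactly 1 gene and 33 to 50 without single arrays. Higher at late day than midday were 1 with no filter or the covariate and 1 to 4 without single arrays. Between regimes, late day gave 1 with no filter and 0 to 2 without single arrays. Midnight gave 0 with no filter, the 6 arrays of that time alone, median centring, the covariate or exactly 1 gene, and 0 to 5 without single arrays. Pre-dawn gave 7 with no filter, 0 with its 6 arrays alone, 10 with the covariate, 7 with exactly 1 gene and 2 to 26 without single arrays. Apart from fewer probe sets or arrays, the cause was not tested.

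Of 22 named members recomputed, 18 kept their side of the threshold in every setting, and AT1G13750, AT3G20240, AT4G01700 and LTI30 crossed it. AT5G03350 reversed to -0.0446 and AT5G52760 to -0.348 with the covariate, and AT5G52760 lay between -0.00309 (without water-limited midday replicate 3) and 0.509 without single arrays. AT1G13750 missed the threshold with no filter, with the covariate and without each of several single arrays (differences of 0.64 to 0.74).

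With the replicate block, 106 members were higher at midnight and pre-dawn and 15 differed between regimes at pre-dawn, and no count moved by over 1.5 times. Deviations of water-limited arrays of equal number had a median r of 0.0265 (-0.247 to 0.45 over 18 pairs). Those of different number had 0.0327 (-0.416 to 0.323 over 36 pairs). Whether the numbers pair the samples was not tested. The alternative on motif strands was not run, because no promoter sequence was used here, and keeping all probe sets with a margin of 1 or more gave the same 112 members. Values within 0.2 of the table's lowest value occurred in 4 members, GI among them. Other members repeated exactly the same low value on several arrays, such as AT1G13470 at 2.859 and 257101_at at 5.2389. The low levels of more members may therefore not be resolved.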
